A study of Homo sapiens with 16 samples.

Results

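Belinostat alone was set against vehicle in U87 cells, a long-established line from a human glioblastoma, through the peak lists of open chromatin deposited for both groups. The members are the peaks of these 2 lists on chromosomes 1 to 22 and X, 269255 of the 542393 peaks in the 4 lists of the series. The belinostat group (Control_Bel) received 1 µM belinostat for 24 h, and the vehicle group (Control_DMSO) received DMSO. Both groups hold 4 libraries, and each has 1 peak list. A comparison with AsiDNA, a decoy DNA that occupies the machinery of DNA repair, set the combination (Asi_Bel) against AsiDNA alone (Asi_DMSO), also with 4 libraries each. The combination likewise received 1 µM belinostat for 24 h, and AsiDNA alone received DMSO in its place. The protocols speak of MTU87 and LTAU87 cells where the sample fields say U87, and the dose of AsiDNA is not given in the sources used here, so how the AsiDNA cells relate to the others is not settled. A peak was counted as gained when no vehicle peak overlapped it by 1 bp or more, and a vehicle peak as lost when no belinostat peak overlapped it in the same way.

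Histone deacetylases remove acetyl groups from the tails of histones, which tightens the hold of nucleosomes on DNA and takes away the docking sites of bromodomain proteins. Belinostat is a hydroxamate that binds the zinc ion in the active site of the classical deacetylases, so that acetylated histones accumulate. NicE-seq reads open chromatin with a nicking enzyme and a DNA polymerase that place biotinylated nucleotides where nuclear DNA is exposed. Active transcript starts are among the most open sites of a cell, and most of the remaining open sites are enhancers and other distal elements.

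The belinostat list held 138937 peaks over 66.1 Mb with a median width of 408 bp, and the vehicle list held 130318 peaks over 62.4 Mb with a median width of 398 bp. With 1 list per group there is no spread between replicates, so no test was made, and each interval is a Wilson 95% interval for counting error alone. Depth per library is unknown. All 10 genes chosen as expressed in U87 cells, among them VIM, CD44 and FN1, had a peak at a gene end in both lists. Of 10 defining genes of immune, epithelial, endothelial and neuronal cells, 5 had such a peak in the belinostat list and 4 in the vehicle list. CD3E, RBFOX3, SNAP25 and SYP were open at an end in both, and CDH5 in the belinostat list. In the windows of these 10 genes, 34 of 99 belinostat peaks were gained (34.3%, 25.7 to 44.1) and 17 of 83 vehicle peaks lost (20.5%, 13.2 to 30.4), against 22.7% and 16.8% over all genes. Of the 10 genes, 5 held more gained than lost peaks, 3 held more lost and 2 held equal numbers. Among those with more gained, the epithelial cadherin CDH1 had 8 gained and 3 lost. The endothelial cadherin CDH5 had 5 gained and 0 lost, and the neuronal SNAP25 5 gained and 1 lost. The part of these 10 genes in the results was not tested. No peak of either list lay in or within 10 kb of CDKN2A, CDKN2B or MTAP, the genes of a deletion known in this line.

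Gained and lost peaks were narrow and weak members of their lists. Gained peaks numbered 33268, or 23.9% of the belinostat list (interval 23.7 to 24.2), and lost peaks numbered 24751, or 19% of the vehicle list (18.8 to 19.2). The belinostat list was the longer one by 8619 peaks, and the excess of gained over lost peaks was 8517, so the totals follow the lengths of the lists. Gained peaks had a median width of 276 bp, against 461 bp for belinostat peaks shared with vehicle, and lost peaks had a median width of 254 bp, against 443 bp for shared vehicle peaks. The fold enrichment over local background, a value that the authors deposited with each peak, used here to rank peaks within a list, put the median gained peak at percentile 20.3 and the median lost peak at percentile 19.8.

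Turnover was concentrated at the weak end of both lists. Each list was divided into 10 classes by fold enrichment. In the weakest class, 62.9% of belinostat peaks were gained (62.1 to 63.7) and 52.3% of vehicle peaks were lost. In the strongest class, 28 belinostat peaks were gained (0.202%) and 76 vehicle peaks were lost (0.583%). At or above percentile 50 there were 3571 gained and 2915 lost peaks. For 83.2% of the gained peaks (27688) and 80.8% of the lost peaks (19994), the other list had no peak within 1000 bp either.

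**Figure D1:**
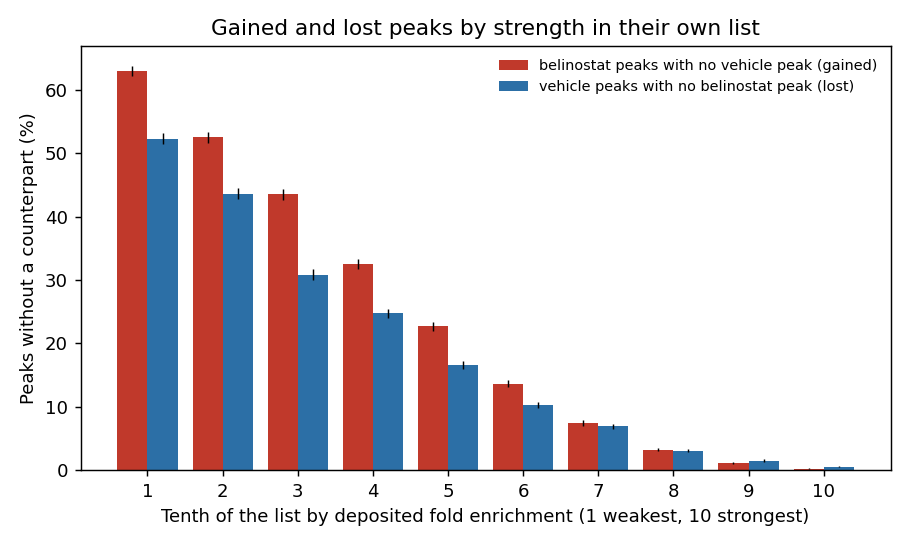
Share of belinostat peaks with no vehicle peak (red) and of vehicle peaks with no belinostat peak (blue), in percent, in 10 classes of deposited fold enrichment within each list; error bars are Wilson 95% intervals. The share is 62.9% of belinostat peaks and 52.3% of vehicle peaks in the weakest class and below 1% in the strongest class of both lists.

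Peaks at transcript starts were gained or lost less often than peaks away from gene ends. A start, from the RefSeq promoter table for 15811 protein-coding genes, counted as met when a peak came within 1000 bp of it. Of the belinostat peaks at starts, 598 of 10661 (5.61%, 5.19 to 6.06) were gained, and of the vehicle peaks at starts, 738 of 10738 (6.87%, 6.41 to 7.37) were lost. More than 1000 bp from any gene end or start, the shares were 25.8% gained and 20.4% lost. The 102399 peaks that matched 1 to 1 between the lists were then ranked by fold enrichment among themselves in each list. This gives both rankings the same length, and their widths were set side by side. Shared peaks at starts were stronger, with median ranks of 70.7 in the belinostat list and 62.6 in the vehicle list. Away from gene ends these were 47.8 and 48.7. The gained and lost shares at starts were not compared with the others at equal strength.

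The shift of a peak is its rank in the belinostat list minus its rank in the vehicle list. At the 9325 shared peaks that met a start, the median shift was 4.98 percentile points. At the 88766 shared peaks more than 1000 bp from gene ends it was -0.12 points. A shift of 25 points or more upward was counted at 666 start peaks (7.14%) and downward at 213 (2.28%). Both shares lay below those of all shared peaks. Over all shared peaks the same thresholds were passed by 9584 peaks upward (9.36%) and 10531 downward (10.3%). Ranked within each whole list, where the lengths differ, 10872 went upward and 8158 downward, so the balance over all shared peaks turns with the ranking. Start peaks were narrower by 3.85% at the median, with median widths of 783 bp in the belinostat list and 851 bp in the vehicle list. Of them, 720 (7.72%) were narrower by 1.5 times or more and 350 (3.75%) were wider by that factor. Over all shared peaks 10396 (10.2%) were wider and 7286 (7.12%) narrower by that factor. The narrower share at starts was thus near that of all shared peaks, and the wider share was lower. Away from gene ends the median width was 438 bp in the belinostat list and 419 bp in the vehicle list.

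The shift at starts was present in 3 of 4 classes of strength. Shared peaks were put into 4 classes of mean rank in both lists, split at percentiles 25, 50 and 75, and in classes 2, 3 and 4, which run upward in strength, the start peaks shifted up by a median of 5.88, 7.99 and 5.02 points. Peaks away from gene ends shifted by -0.04, -0.29 and -0.24 points in the same classes. In class 1, the weakest, the start peaks shifted by -0.11 points. Promoters were also put into 4 classes of GC content over the 8545 starts that lie under a shared peak, and the median shift was 4.40 points in the class lowest in GC and 6.95 points in the highest. The comparison of starts was chosen after the data were seen.

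The rank shift at starts was also present in the pair of lists that holds AsiDNA on both sides and shares no list with the first pair. The combination over AsiDNA gave a median shift of 5.15 points at 9384 start peaks and of -0.08 points away from gene ends. By 25 points or more, 631 start peaks moved up (6.72%) and 203 down (2.16%). Over all shared peaks of that pair the shares were 8.90% and 9.85%. Start peaks there had a median width of 774 bp with the combination and 887.5 bp with AsiDNA. Away from gene ends the median widths were 419 bp with the combination and 436 bp with AsiDNA. The median width in that pair was therefore lower with the combination both at starts and away from gene ends. In belinostat over vehicle the median width was lower with belinostat at starts and higher away from gene ends. Single peaks narrowed away from gene ends in that comparison too. Of the shared peaks there, 45.2% were narrower with belinostat and 54.4% were wider. AsiDNA over vehicle, which shares the vehicle list, gave -0.25 points and a width of 876 bp with AsiDNA against 847 bp with vehicle at starts. The combination over belinostat, which shares the belinostat list, gave 0.0039 points at starts.

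**Figure D2:**
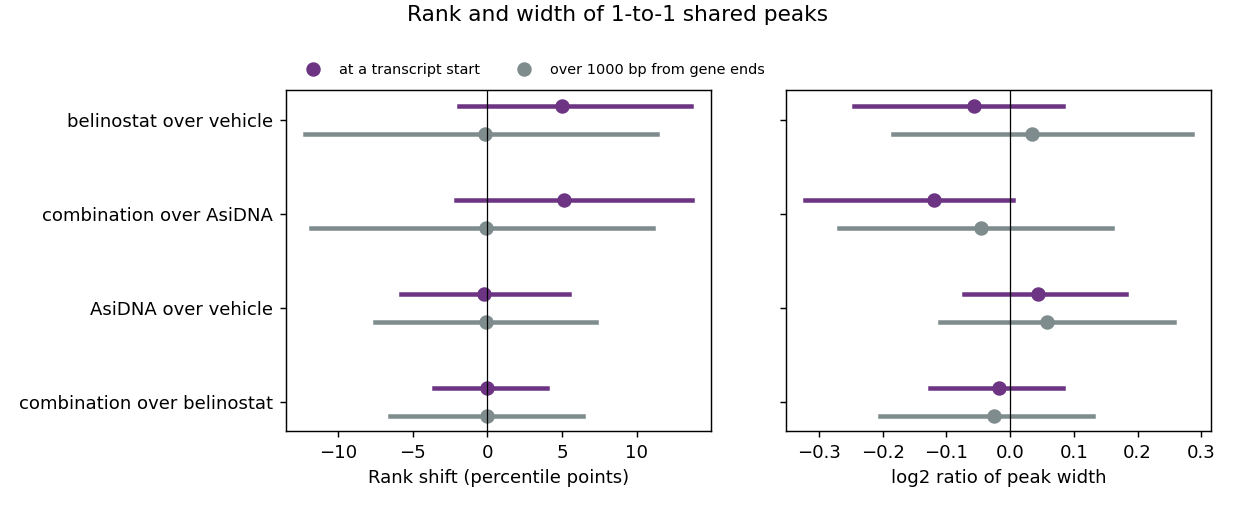
Rank shift in percentile points (left) and log2 ratio of peak width (right) of 1-to-1 shared peaks in 4 comparisons; points are medians and lines run from the lower to the upper quartile, for peaks at a transcript start (purple) and over 1000 bp from gene ends (grey). The median shift at starts is 4.98 points for belinostat over vehicle and 5.15 points for the combination over AsiDNA, and within 0.25 points of 0 in the other 2 comparisons.

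Among the 8545 starts under a shared peak, 607 (7.10%) moved up by 25 points or more and 116 (1.36%) moved down. KLF6, a zinc finger transcription factor known as a tumour suppressor, stood at rank percentile 68.8 in the belinostat list and 9.49 in the vehicle list, with deposited fold enrichments of 9.57 and 3.64 in those lists. In the lists with AsiDNA its shift was 43.4 points, with fold enrichments of 9.53 for the combination and 4.82 for AsiDNA. ZNF124, a zinc finger gene of chromosome 1, stood at 65.7 in the belinostat list and 5.63 in the vehicle list, and its shift with AsiDNA was 14.1 points. ZNF670, NUDT1, which clears oxidised nucleotides, PSMC6, a proteasome subunit, and SNAP23, a membrane fusion protein, moved up by 52.7, 56.9, 48.3 and 48.1 points. GOLGA6B and GOLGA6A, which moved up by 67.5 and 56.3 points, belong to a family of near-identical copies, so their reads can be split between them.

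Downward shifts were fewer. LUZP2, a leucine zipper protein of the nervous system, stood at 22.2 in the belinostat list and 84.3 in the vehicle list, and its shift with AsiDNA was -32.55 points. ROS1, a receptor tyrosine kinase, shifted by -61.73 points, and by -29.80 points in the lists with AsiDNA. NEDD4, a ubiquitin ligase, shifted by -43.15 and -56.15 points in the first and second pair of lists, and IL33, a nuclear alarmin cytokine, by -42.19 and -37.40 points. Of the 607 starts that moved up, 567 had a shared peak in the lists with AsiDNA and 531 of these (93.7%) ranked higher with the combination. Of the 116 that moved down, 109 had one and 20 (18.3%) ranked higher there. Over all starts with a pair in those lists the share was 73.3%.

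Promoter sequences from RefSeq (GRCh38.p14, 250 bases before to 50 after the start, on the strand of the gene) show the range in base composition that these classes span. CG pairs are in capitals. KLF6 and ZNF124 are shown as starts whose shared peak moved up, SSTR3, a somatostatin receptor gene, and GOLGA6C as starts with a gained peak, and FGL2, an immune regulator related to fibrinogen, and KRTAP4-1, a hair keratin-associated protein, as starts with a lost peak. KLF6 is at chr10:3785160-3785459 on the minus strand, ZNF124 at chr1:247171971-247172270 on the minus strand, SSTR3 at chr22:37212428-37212727 on the minus strand, GOLGA6C at chr15:75258084-75258383 on the plus strand, FGL2 at chr7:77199770-77200069 on the minus strand and KRTAP4-1 at chr17:41184862-41185161 on the minus strand.
KLF6: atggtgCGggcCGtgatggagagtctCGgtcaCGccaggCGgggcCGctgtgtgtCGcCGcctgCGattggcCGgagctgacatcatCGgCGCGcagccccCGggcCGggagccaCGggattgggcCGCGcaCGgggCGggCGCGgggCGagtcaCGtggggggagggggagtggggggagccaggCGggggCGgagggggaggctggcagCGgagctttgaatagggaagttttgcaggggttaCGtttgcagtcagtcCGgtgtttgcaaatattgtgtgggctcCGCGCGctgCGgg
ZNF124: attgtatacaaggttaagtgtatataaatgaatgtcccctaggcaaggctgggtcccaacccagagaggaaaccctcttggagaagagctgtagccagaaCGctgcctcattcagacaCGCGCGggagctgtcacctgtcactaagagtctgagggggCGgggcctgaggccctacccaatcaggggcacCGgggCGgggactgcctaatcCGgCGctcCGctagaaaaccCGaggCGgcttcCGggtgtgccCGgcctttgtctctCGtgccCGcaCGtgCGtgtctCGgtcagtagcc
SSTR3: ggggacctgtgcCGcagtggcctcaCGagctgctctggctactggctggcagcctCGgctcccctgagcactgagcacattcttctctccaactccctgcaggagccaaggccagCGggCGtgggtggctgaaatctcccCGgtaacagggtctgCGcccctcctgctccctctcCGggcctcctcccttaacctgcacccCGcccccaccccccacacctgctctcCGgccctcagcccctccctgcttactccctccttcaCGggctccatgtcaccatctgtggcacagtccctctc
GOLGA6C: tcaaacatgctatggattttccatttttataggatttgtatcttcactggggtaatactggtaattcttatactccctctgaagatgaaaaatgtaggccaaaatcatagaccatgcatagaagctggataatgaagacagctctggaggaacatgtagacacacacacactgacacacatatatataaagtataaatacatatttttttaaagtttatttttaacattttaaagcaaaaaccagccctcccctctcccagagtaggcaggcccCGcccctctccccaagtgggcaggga
FGL2: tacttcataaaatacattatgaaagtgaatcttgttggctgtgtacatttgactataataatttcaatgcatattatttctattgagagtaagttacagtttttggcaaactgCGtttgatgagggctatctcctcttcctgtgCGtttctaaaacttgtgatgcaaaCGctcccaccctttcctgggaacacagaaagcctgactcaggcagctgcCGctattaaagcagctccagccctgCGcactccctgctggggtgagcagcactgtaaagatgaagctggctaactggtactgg
KRTAP4-1: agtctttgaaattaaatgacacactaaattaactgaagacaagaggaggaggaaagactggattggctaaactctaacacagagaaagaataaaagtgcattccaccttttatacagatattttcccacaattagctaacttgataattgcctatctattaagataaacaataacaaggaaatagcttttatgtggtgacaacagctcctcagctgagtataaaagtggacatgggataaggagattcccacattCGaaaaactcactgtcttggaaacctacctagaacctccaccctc
The KLF6 promoter held 33 CG pairs and ZNF124 held 19, SSTR3 held 11 and GOLGA6C held 1, and FGL2 held 5 and KRTAP4-1 held 1. GOLGA6C is of the same family as GOLGA6A and GOLGA6B, so the limit on split reads holds for it too.

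Starts with a peak in 1 list were poor in CG pairs. A peak in the belinostat list only was found at 374 of 15811 starts (2.37%), and a peak in the vehicle list only at 254 (1.61%). The median promoter held 6 CG pairs in the first class, 14.5 in the second, 26 at the 10124 starts open in both lists and 7 at the 5059 starts open in neither. The letters GGGCGG, the core of the GC box that Sp1-type factors bind, were found on either strand in 39.3% of the belinostat-only promoters and in 50.0% of the vehicle-only ones. The shares were 70.7% at starts open in both lists, 35.9% at starts open in neither and 58.5% of all 15811 promoters. The AP-1 letters TGACTCA were found on either strand in 6.95% and 5.51% of the belinostat-only and vehicle-only promoters and in 3.67% of all. The letters TATAAA, on either strand, were found in 12.8% and 10.2% of the belinostat-only and vehicle-only promoters and in 9.64% of all. These shares lay between the 5.75% at starts open in both lists and the 17.2% at starts open in neither. These matches describe letters in a window and not binding. In the lists with AsiDNA, 108 of the 374 belinostat-only starts had a peak with the combination only and 33 with AsiDNA only, and of the 254 vehicle-only starts 17 had one with the combination only and 97 with AsiDNA only.

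Gained peaks at gene ends led with GOLGA6C, at fold enrichment 12.6 and percentile 88.9 of the belinostat list. It belongs to the same family as GOLGA6A and GOLGA6B, so its reads can also be split between copies. TRIB3, a stress-induced pseudokinase, gained a peak of fold enrichment 10.8 at its start, ANGPTL7, a secreted angiopoietin-like protein, one of 10.2 at its start, and ABCC2, an efflux transporter, one of 9.64 at its end. The combination list held a peak at all 10 leading ends, and the AsiDNA list at 5 of them. Lost peaks at gene ends led with KRTAP4-1, at fold enrichment 12.3 and percentile 94.3 of the vehicle list. ZBED2, a transcription factor, lost a start peak of fold enrichment 9.49, FGL2 one of 8.99 and HGS, a sorting protein of endosomes, one of 8.78. UCP3, a mitochondrial carrier, lost a peak of 8.99 at its end. The combination list held a peak at 7 of the 10 leading lost ends, and the AsiDNA list at all 10.

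The strongest gained peak, 202 bp wide at chr1:76971215-76971416 inside the sialyltransferase gene ST6GALNAC5, had a fold enrichment of 28.8 and stood at percentile 99.99. Those at chr5:134927011-134927215 in PCBD2 and chr17:53106131-53106394, 717 kb from KIF2B, had 23.4 and 22.7 and were 205 and 264 bp wide. The next in order were wider, such as the 451 bp peak in INO80, a chromatin remodeller, with a fold enrichment of 15.5, and the 403 bp peak in SPICE1, a centriole protein, with 14.9. All 10 strongest gained peaks met a combination peak, and 7 of them met no AsiDNA peak. The strongest lost peak, at chr18:28593948-28594397, 417 kb from CDH2 (N-cadherin), had a fold enrichment of 16.9. Others lay in SP100, a nuclear body protein, at 13.7, in the complement gene C3 at 13.5 and in ARMC8 at 14.7. Of the 10 strongest lost peaks, 9 met a combination peak and 10 met an AsiDNA peak. In 8 of those 9 the combination peak had a fold enrichment of 4.16 to 7.16, and the peak nearest WSB1 had 17.1.

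Shared peaks away from starts held the widest shifts. In SKI, a repressor of TGF-beta signalling, a peak was 1064 bp wide with belinostat and 192 bp with vehicle, the smallest width in the vehicle list. In ADAMTS12, a matrix protease, the widths were 991 bp with belinostat and 195 bp with vehicle. A peak in ARID4B, a subunit of the SIN3 deacetylase complex, was 296 bp with belinostat and 1215 bp with vehicle. The largest rank shift upward was in ANXA6, an annexin, at percentile 93.2 with belinostat and 2.91 with vehicle. ETV6, an ETS repressor, and BMPR1B, a BMP receptor, held peaks that moved up by 81.9 and 84.1 points. AKAP9, a kinase anchoring protein of the centrosome, held a peak at percentile 5.96 with belinostat and 97.3 with vehicle, and TCF7L1, a repressor of WNT targets, 1 at 2.62 with belinostat and 90.8 with vehicle. None of the 10 leading peaks in each of these 4 orders met a start in the promoter table, which covers 15811 genes and none of chromosome 8. Starts were met by only 9325 of all 102399 shared peaks, so few would be met by 10 peaks of any order.

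By median distance, gained peaks lay nearer to genes than lost peaks. Their median distance to the nearest gene end was 27.0 kb, against 41.1 kb for lost peaks and 24.5 kb for shared peaks. Within 1000 bp of a gene end or start the order was reversed, with 4.77% of gained and 5.43% of lost peaks. There were 10.0 protein-coding genes within 500 kb either side of a gained peak on average, 7.70 around a lost peak and 9.93 around a shared belinostat peak. No gene lay in that window for 4.51% of the gained and 11.2% of the lost peaks. Gained peaks per lost peak came to 2.45 on chromosome 19 (interval 2.19 to 2.75), the most gene-dense chromosome, 2.00 on chromosome 22 (1.74 to 2.29), 1.84 on the X chromosome (1.64 to 2.07) and 1.75 on chromosome 17 (1.60 to 1.92). The ratio was 0.915 on chromosome 13 (0.835 to 1.00) and 1.07 on chromosome 18 (0.968 to 1.19).

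Part of the lost peaks came from windows without genes. The 20 windows of 1 Mb with the largest excess of lost over gained peaks held no protein-coding gene, and in them 357 peaks were gained and 1261 lost, 5.09% of all lost peaks. The window from 92 to 93 Mb of chromosome 2 had 20 gained and 104 lost peaks, and that from 44 to 45 Mb of chromosome 9 had 51 gained and 123 lost. Many of these windows lie at the edges of centromeres, whose repeated sequence makes mapping uncertain, and the part of mapping was not tested. With AsiDNA on both sides, the same windows had 538 gained and 1097 lost peaks, and 19 of the 20 had more lost. Without them the median distance of lost peaks was 36.6 kb, and gained peaks still had the shorter one, at 26.5 kb. The window with the largest excess of gained peaks, from 50 to 51 Mb of chromosome 19, holds the kallikrein gene KLK4 and had 43 gained and 4 lost peaks, and the window from 39 to 40 Mb of chromosome 22 had 39 gained and 4 lost.

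Over 432 windows of 5 Mb with at least 60 gained or lost peaks in both pairs of lists, the gained share correlated between belinostat over vehicle and the combination over AsiDNA with a Spearman coefficient of 0.741 and a Pearson r of 0.729. This is a description across windows, which share their gene density, and the gained share against vehicle had a Spearman coefficient of 0.683 with the number of genes. Leaving out the 15 windows with a gained share below 40% gave a coefficient of 0.730.

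**Figure D3:**
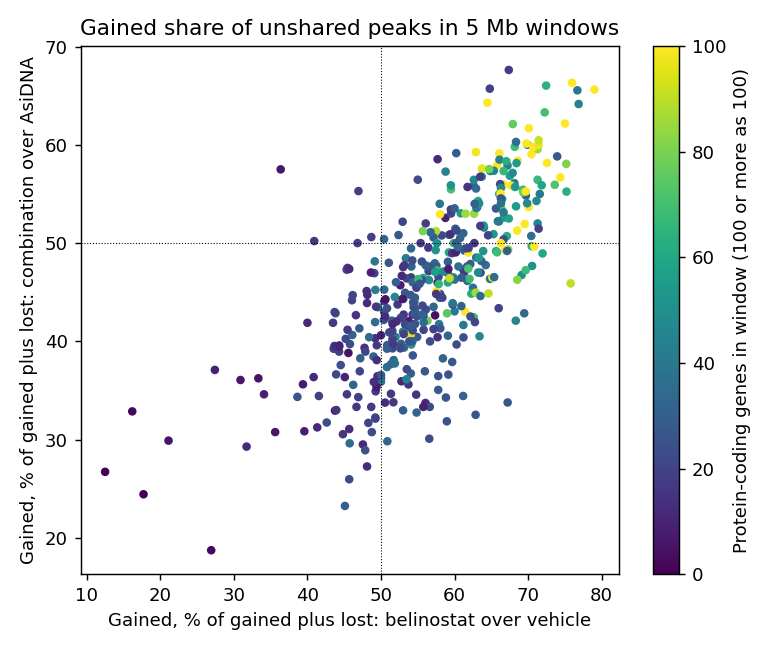
Gained peaks as a percentage of gained plus lost peaks in 432 windows of 5 Mb, for belinostat over vehicle (horizontal) and the combination over AsiDNA (vertical); each point is a window, coloured by its number of protein-coding genes. Windows with many genes lie mostly at the upper right, and the rank correlation is 0.741.

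Single peaks recurred less. Of the gained peaks, 11261 (33.8%, 33.3 to 34.4) overlapped a peak gained with the combination over AsiDNA, against 3.86% of the shared belinostat peaks. Of the lost peaks, 9358 (37.8%, 37.2 to 38.4) overlapped a peak lost there, against 4.19% of the shared vehicle peaks. In the lists with AsiDNA the share of all peaks was 18.4% gained and 20.9% lost. Shared peaks were stronger, at a median percentile of 60.9 in the belinostat list and 58.2 in the vehicle list. The medians were 20.3 for gained and 19.8 for lost peaks. Most shared belinostat peaks (90.6%) met a peak in both lists with AsiDNA. Recurrence was not compared with that of shared peaks at equal strength. At or above percentile 50 the recurrence was 47.2% of gained and 49.7% of lost peaks. A peak with AsiDNA but not with the combination, which is the opposite direction, met 7.99% of the gained peaks, and a peak with the combination but not with AsiDNA met 5.81% of the lost peaks.

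Counted over the span plus 10 kb of each of 19970 protein-coding genes, 7680 genes (38.5%) held more gained than lost peaks and 3926 (19.7%) more lost than gained. With both lists at equal length these were 6340 and 4854 genes. Gained peaks per lost peak were fewer in longer genes, at 1.97 for genes under 10 kb, 1.35 for genes of 100 to 300 kb and 1.02 for the 69 genes of 1000 kb or more. Neighbouring genes can share peaks in these windows.

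ATP2B2, a calcium pump of the plasma membrane, had 48 peaks in the belinostat list and 30 in the vehicle list, with 22 gained and 4 lost, the largest difference among all genes. COL23A1, a transmembrane collagen, had 29 peaks with belinostat and 12 with vehicle, with 20 gained and 3 lost. NHS, a regulator of actin and cell shape, had 60 peaks with belinostat and 42 with vehicle, with 20 gained and 3 lost. TSPAN18, a tetraspanin, had 16 gained and 1 lost. GSE1, a partner of deacetylase corepressor complexes, had 18 gained and 3 lost, and CDH23, an atypical cadherin of sensory hair cells, 17 gained and 3 lost. GPHN, the scaffold of inhibitory synapses, had 21 gained and 6 lost, and SYN3, a synapsin whose intron holds TIMP3, had 21 gained and 8 lost. KAZN, a protein of cell junctions, had the most gained peaks of any gene, 29, with 18 lost. With AsiDNA on both sides these genes also held more gained than lost peaks, for example 13 and 1 for NHS, 12 and 1 for CDH23 and 12 and 6 for ATP2B2. IQCJ-SCHIP1, with 19 gained and 4 lost, had 11 of each there. The excess of gained over lost peaks in COL23A1, 17, came to 6 when a gained or lost peak had to reach a −log10 q of 5 and to 8 with lists of equal length. That of NHS came to 11 and that of TSPAN18 to 9 under the q requirement, against 17 and 15, and that of CDH23 to 9 at equal length, against 14.

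Genes with more lost peaks were fewer. NLGN1, an adhesion protein of excitatory synapses, had 25 peaks in the belinostat list and 40 in the vehicle list, with 2 gained and 16 lost. CAMK1D, a calmodulin-dependent kinase, had 2 gained and 14 lost, NTNG1, a netrin of axons, 2 gained and 12 lost, and FGF12, an intracellular regulator of sodium channels, 1 gained and 11 lost. RORA, a nuclear receptor, had 5 gained and 16 lost, and NRG1, a ligand of ERBB receptors, 9 gained and 20 lost. PRKG1, the kinase activated by cyclic GMP, had 25 gained and 34 lost, the most lost peaks of any gene, and PDE4D, a cyclic AMP phosphodiesterase, had 18 gained and 23 lost. With AsiDNA on both sides the lost peaks again outnumbered the gained in each of them, with 3 gained and 12 lost in NLGN1, 4 and 10 in CAMK1D, 2 and 12 in FGF12 and 10 and 12 in RORA. Gained minus lost peaks in PRKG1, -9, came to -3 under the q requirement and to -20 with lists of equal length, and in NTNG1, -10, to -5 under the q requirement.

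**Figure D4:**
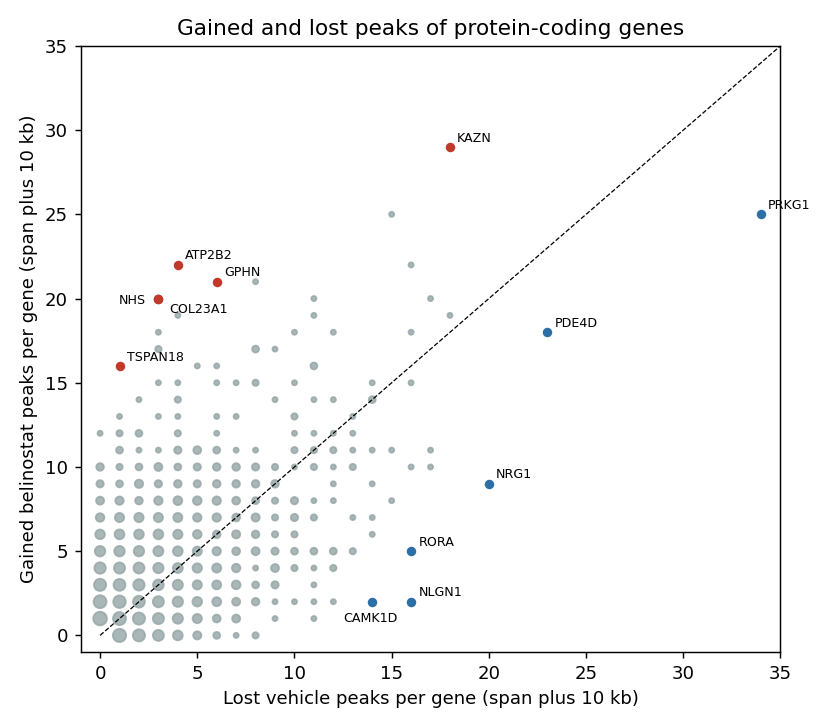
Gained belinostat peaks (vertical) against lost vehicle peaks (horizontal) in the span plus 10 kb of protein-coding genes; grey points mark gene counts at each position, with larger points for more genes, and coloured points are named genes with more gained (red) or more lost (blue) peaks. The dashed line marks equal numbers; ATP2B2 stands at 22 gained and 4 lost, NLGN1 at 2 gained and 16 lost.

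Genes with peaks of 1 direction alone were counted at 5 peaks or more. There were 127 with gained and 0 lost peaks (0.636% of genes) and 14 with lost and 0 gained (0.0701%). With lists of equal length they numbered 59 and 35. The densest gain was in KLK4, a kallikrein protease, with 6 gained peaks in a window of 25.05 kb and 7 peaks in the belinostat list against 1 in the vehicle list. EXTL1, an enzyme of heparan sulfate synthesis, and ARHGEF19, an exchange factor of small GTPases, had 6 gained each, RASD2, a small GTPase of the striatum, and CDK18, a cyclin-dependent kinase, 7 each, and MGAT3, a glycosyltransferase of N-glycans, 8. Of the 127 genes, 98 also held more gained and 11 more lost peaks with the combination over AsiDNA. Over all genes these were 5305 and 5762.

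All 14 genes with lost peaks alone held more lost than gained peaks in the lists with AsiDNA. DTNB, a dystrobrevin, had 0 gained and 8 lost against vehicle and the same numbers with AsiDNA. ABR, a regulator of small GTPases, had 0 gained and 8 lost, and 1 gained and 6 lost with AsiDNA. PROM1, whose product CD133 is used as a surface marker of glioma stem cells, had 5 peaks in the belinostat list and 11 in the vehicle list, with 0 gained and 6 lost, and 0 gained and 9 lost with AsiDNA. EHMT1, a histone H3 lysine 9 methyltransferase, had 0 gained and 5 lost, and LMOD2 and MYPN, proteins of muscle sarcomeres, had 5 and 6 lost.

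Gene lists were read against all genes, whose windows held 88010 belinostat peaks with 22.7% gained and 81626 vehicle peaks with 16.8% lost. Among the 11 classical deacetylases, the targets of the drug, 20 of 119 peaks were gained (16.8%, interval 11.2 to 24.5) and 17 of 114 lost (14.9%, 9.52 to 22.6). HDAC9 had 9 gained and 9 lost, HDAC4 had 1 gained and 3 lost, and HDAC11 and HDAC2 each had 2 gained and 1 lost. Of 8 deacetylase starts under a shared peak, 7 ranked higher with belinostat, HDAC11 by 26.6 points and HDAC3 by 11.6, and HDAC9 shifted by -30.49. Over all such starts 6261 of 8545 ranked higher, with a median of 5.86 points. The subunits of corepressor complexes, which carry deacetylases to chromatin, had 24.4% gained and 18.8% lost. Acetyltransferases and BET readers had 18.4% gained and 16.7% lost, with KAT6B at 4 gained and 5 lost and EP300 at 0 gained and 3 lost.

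Growth control, cell death and repair genes gained 16.5% to 21.3% of their belinostat peaks. Cell cycle brakes had 21.3% gained and 9.76% lost, with 6 of 8 starts ranked higher. CDKN1A, the p21 inhibitor that deacetylase inhibitors are known to induce, had 3 peaks in either list with none gained or lost, and its start ranked 19.5 points higher with belinostat. SESN1, a stress-induced sestrin, had 4 gained and 0 lost. The G1 cyclins, kinases and RB-E2F genes had 16.5% gained and 18.5% lost. CDK6 had 3 gained and 6 lost there, and E2F1 0 gained and 3 lost while its start ranked 32.6 points higher. The apoptosis genes had 19.7% gained and 15.4% lost, with 1 gained and 4 lost in PMAIP1, the BH3 protein NOXA, and 6 of 13 starts ranked higher. Break repair genes had 19.3% gained and 14.8% lost, and 20 of 21 starts ranked higher, with a median of 9.90 points; LIG4, the ligase of end joining, shifted by 23.2 points and by 24.9 points with AsiDNA on both sides.

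EGFR led the receptor tyrosine kinases of glioma. It had 33 peaks in the belinostat list and 21 in the vehicle list, with 13 gained and 1 lost, and its start moved up by 46.9 points. The excess of 12 gained peaks came to 6 with lists of equal length. With AsiDNA on both sides EGFR had 7 gained and 3 lost, and its start moved up by 18.4 points. ERBB4 had 2 gained and 6 lost, MET, the receptor of hepatocyte growth factor, had 1 gained and 5 lost, and both had 1 gained and 8 lost with AsiDNA. The whole list had 22.1% gained and 18.7% lost. The regulators of the mesenchymal glioma state had 21.3% gained and 18.9% lost, with RUNX1 at 10 gained and 8 lost, RUNX2 at 8 and 7 and WWTR1 at 5 and 7. With AsiDNA on both sides RUNX1 had 6 gained and 7 lost, RUNX2 5 and 12 and WWTR1 3 and 8. Matrix and integrin genes had 18.8% gained and 16.1% lost; ITGA2, a collagen-binding integrin, had 2 gained and 8 lost, and COL4A1, a basement membrane collagen, 7 gained and 2 lost, both with the same lean in the lists with AsiDNA.

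Among neural genes, glial identity genes had 16.7% gained (10.7 to 25.1) and 21.1% lost (14.5 to 29.7). Of the 17 genes, 4 held more gained peaks, 5 more lost and 8 equal numbers. SLC1A2, a glutamate transporter of astrocytes, had 5 gained and 10 lost, PROM1 had 0 and 6, and SOX9 had 3 and 0. The genes of synaptic and axonal adhesion had 27.0% gained (22.8 to 31.6) and 26.4% lost (22.2 to 31.0), against 22.7% and 16.8% over all genes. Their median length was 1115 kb, against 24.2 kb over all genes. CSMD2 had 17 gained and 8 lost, NLGN1 2 and 16, and MAGI2 9 and 9. Glutamate and GABA receptor genes had 27.9% gained and 23.9% lost, with GRIN2A at 8 gained and 10 lost and GRIK4 at 8 and 3.

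Immune, early response and housekeeping lists had lost shares below the 16.8% over all genes. The interferon-induced genes gained 23 of 102 belinostat peaks (22.5%) and lost 8 of 88 vehicle peaks (9.09%, 4.68 to 16.9). IFITM1, IFITM2 and IFITM3, neighbouring genes that restrict virus entry and share peaks in these windows, each had 3 gained and 0 lost. Antigen presentation genes gained 16.5% and lost 8.22%, with 3 gained and 0 lost at HLA-E. AP-1 and early growth response genes gained 15.2% of their peaks and lost 6 of 88 (6.82%, 3.16 to 14.1), with 4 gained and 1 lost at FOS. The ribosomal protein genes gained 15.3% and lost 7.77%. The median gene length in these 4 lists was 4.80 to 13.9 kb. With AsiDNA on both sides, IFITM1, IFITM2 and IFITM3 each had 2 gained and 2 lost peaks. HLA-E had 0 gained and 1 lost there, and FOS 2 of each. The interferon-induced list as a whole had 22 gained and 15 lost peaks there. Antigen presentation genes had 10 of each, AP-1 and early growth response genes 16 and 8, and ribosomal protein genes 14 and 12.

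**Figure D5:**
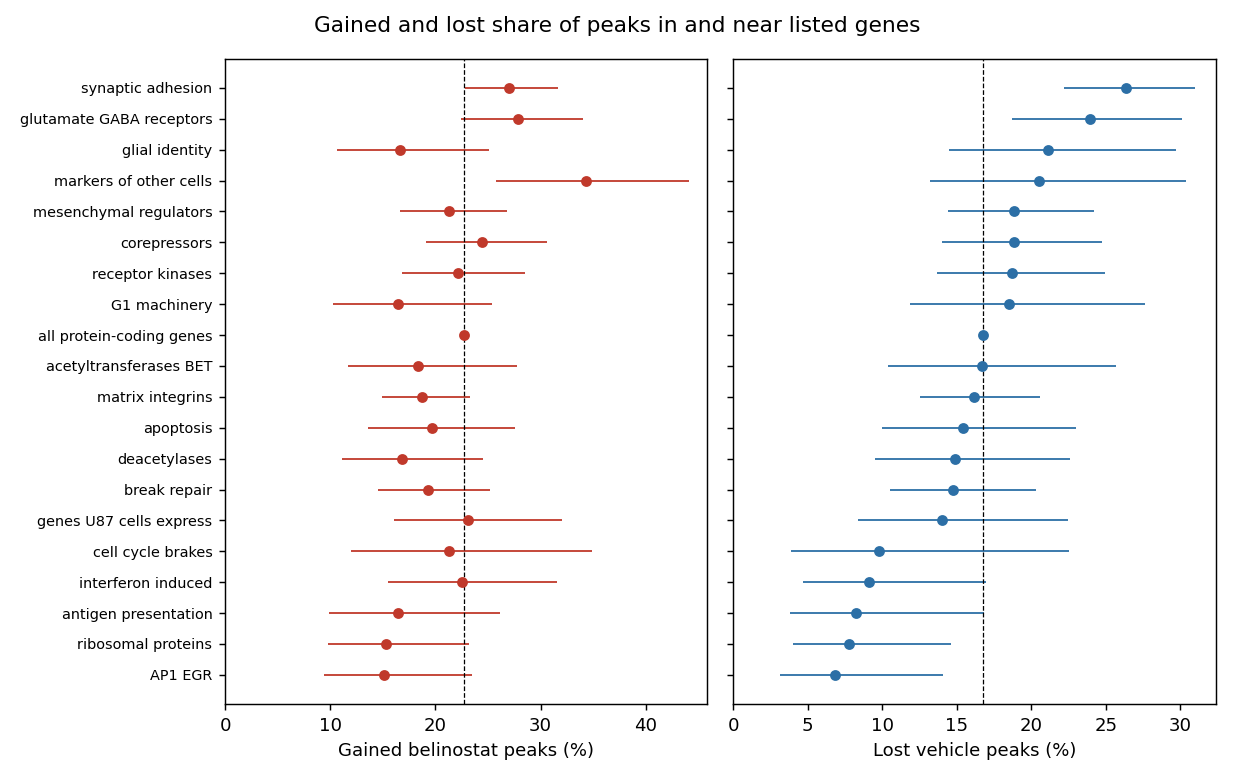
Gained belinostat peaks (left) and lost vehicle peaks (right) as a percentage of the peaks in and within 10 kb of the genes of each list, with Wilson 95% intervals; dashed lines mark all protein-coding genes, at 22.7% gained and 16.8% lost. Synaptic adhesion genes lie at the top for lost peaks with 26.4%, and AP-1 and early growth response genes at the bottom with 6.82%.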

How the data were processed

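NicE-seq open chromatin was compared through 1 peak list for each of 2 groups (4 libraries each, grouped by the treatment field). The submitters' processing notes name hg38, MACS2, Bowtie2 and Trim Galore 0.5.0, besides Picard, deepTools and SAMtools. The sources used here give neither options, nor an input control, nor the pooling of libraries. The authors' deposited columns per peak are a fold enrichment (a ratio over local background), a −log10 p-value and a −log10 q-value; the deposited start, end and summit give position. None is scaled between lists, so a longer list can reflect more reads. Read counts were not used, so depth per sample is unknown.

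Only peaks of chromosomes 1 to 22 and X entered, with 1-based positions. Peaks of the 2 lists were matched by overlap of 1 bp, shared peaks were ranked within equal-length sets, and genes were counted in their span plus 10 kb (RefSeq GRCh38.p14, 19970 protein-coding genes). Of 396 listed symbols, 395 matched. Transcript starts and promoters come from a RefSeq table with 15811 of these genes, and starts on chromosome 8 were not used here. Peak sequences are not shown because no genome was used. Shares of peaks carry Wilson 95% intervals. No test was made, since a group has 1 list.

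Named peaks and genes were the leaders of each order (10 or 15) and up to 4 members per list with most gained plus lost peaks, and further members, namely CDKN1A, HDAC3, MET and LIG4, were chosen after their values were seen, as were KLF6, ZNF124 and the other start shifts named. Promoters with a gained or lost peak were shown for leading peaks that overlap the promoter itself, so SSTR3 lies outside the 10 leading ends. The comparison of transcript starts, the windows of 1 and 5 Mb and the promoter classes were also added after the data were seen. The members and lists were chosen with earlier results of these data known. Alternatives were a −log10 q of 5, equal list lengths, stricter overlap, summit distance and other gene margins. The matching was tested on 20000 simulated regions, of which 100% were recovered. Python 3.11.15, numpy 2.4.6, pandas 2.3.3, scipy 1.17.1 and matplotlib 3.10.9 were used.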

Additional observations from a re-analysis of the deposited data

Results flagged for a closer look

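Several values took opposite signs with and without AsiDNA; each rests on 1 list per group, and the differences were not tested. The totals turned as well, with 33268 gained and 24751 lost peaks for belinostat over vehicle and 24809 gained and 28879 lost for the combination over AsiDNA, and they follow the lengths of the lists. The median log2 width ratio of all shared peaks was 0.0212 for belinostat over vehicle and -0.0559 for the combination over AsiDNA, and more than 1000 bp from gene ends it was 0.0340 and -0.0458. CDH13, an atypical cadherin, held 10 more gained than lost peaks against vehicle and had a difference of -6 with AsiDNA on both sides. LRMDA, a melanocyte differentiation gene, had 9 and -2, and WWOX, a fragile-site gene, had 2 and -9.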

How the results depend on the processing

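No paired analysis was possible because each group has 1 peak list and no result comes from a test. Of the 97 comparisons of main results with an alternative, 78 stayed within the margin set for them. Ranking within each whole list turned the balance of rank shifts, with 10872 peaks up and 8158 down against 9584 up and 10531 down. At percentile 50 or more, gained peaks numbered 3571 and lost peaks 2915, and requiring a −log10 q of 5 in the list that holds the peak gave 15063 lost peaks. Pairs at percentile 50 or more in both lists gave 1630 wider, 1512 narrower, 1134 up and 1463 down in rank, and a median log2 width ratio of 0. Genes with 5 or more gained and 0 lost peaks numbered 84 under the q requirement, 59 at equal list length, 70 in the span alone and 541 with 50 kb added; those with lost peaks alone numbered 35 at equal length and 33 with 50 kb. Under the q requirement, 8 of the 15 genes with most lost peaks remained among the top 15. Recurrence in the lists with AsiDNA was 34.9% of gained and 41.9% of lost peaks under the q requirement, and 32.2% and 36.6% with a gap of 1000 bp. The start shift kept its sign under 7 alternatives chosen after seeing the data, at 3.87 to 5.73 points. Without the 20 windows lacking genes, also chosen after seeing the data, the gene density around gained over lost peaks was 1.25 times. The depth of the libraries is unknown, which limits every count.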
